A study of Mus musculus with 8 samples.

Results

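The genes described here encode the proteins of the cytosolic ribosome in C2C12 myoblasts, a line of mouse skeletal muscle cells. They were chosen by gene symbol alone, as every symbol that starts with Rpl or Rps and a number, together with Rplp0, Rplp1, Rplp2 and Rpsa, leaving out pseudogene rows and the Rps6k kinases. Of 95 such symbols in RefSeq, 91 were among the 27179 rows of the expression table, and 86 of these passed the filter on low values, among 11406 genes that did. A protein-coding model in GENCODE release M21 was present for 82 of the 86, and peaks were compared for these 82. The symbols also take in a few proteins that are not part of the ribosome. Among them are Rpl7l1, a nucleolar factor of ribosome assembly, and Rps19bp1, a binding partner of Rps19. The shares of members with a peak, and with a peak of high fold, are also given without these 2.

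The ribosome is built from a small and a large subunit, each of them ribosomal RNA covered by a set of proteins that are needed in near-equal amounts. The mRNAs of these proteins are among the most abundant in a growing cell, are short, and start with a run of pyrimidines, the terminal oligopyrimidine (TOP) tract, through which growth signals control their translation together. N6-methyladenosine (m6A) is a methyl mark that is placed on adenosines of mRNA within a short sequence context, mostly in long internal exons and near stop codons. MeRIP-seq reads it by sequencing RNA fragments pulled down with an antibody to m6A and comparing them with the input RNA.

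Myoblasts were taken while proliferating in growth medium (GM, 10% fetal bovine serum, at 50% confluence) or after 3 days in differentiation medium (3d DM, 2% horse serum, entered at over 90% confluence). Each state has 2 input RNA-seq libraries, which gave the expression values, and 2 m6A immunoprecipitations (IP), each of which gave 1 list of peaks. All are poly(A) RNA of 1 untreated cell line. No source says whether the replicates were separate cultures, so p-values rest on the spread between these libraries only, shared across genes. In bulk RNA, fewer cells of a kind and less RNA per cell cannot be told apart.

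The expression table holds the authors' normalized values on a common scale, without read numbers, so the depth of the libraries is unknown. The columns have almost equal totals, and 1 entry without a gene symbol took 24.4% to 41.3% of it, which leaves a different remainder for all other genes in each library. Differences are therefore given as deposited and again after rescaling by the median of ratios, which moved the GM libraries down by 0.23 on the log2 scale against the 3d DM libraries. All 5 markers of cycling myoblasts had their higher values in GM and all 7 markers of differentiating muscle in 3d DM, each of them called (limma, Benjamini-Hochberg adjusted p below 0.05), on both scales. For example, Mki67, a marker of proliferating cells, had 3586.0 and 3658.9 in GM, against 446.3 and 760.4 in 3d DM, and Myh3, embryonic myosin, had 1067.7 and 273.0 against 33485 and 51674. The 9 markers of leukocytes, endothelium, adipocytes, neurons, Schwann cells and epithelium summed to between 11.95 and 29.6 in a library, most of it Cd68.

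A pyrimidine run at the start of the mRNA, which the choice of members did not use, was more frequent in the members than in all genes, although most members lacked it at the annotated base. RefSeq starts were matched for 69 members (GRCm38.p6, the build also called mm10). On the sense strand, 15 of the 69 (21.7%) had a C at the annotated start followed by at least 4 further C or T bases, against 3.01% of 27025 genes with a start in the same table. A run of at least 8 C or T bases that begins with C lay within 20 bases of the start in 46.4% of the members and in 14.5% of all. The median longest run in that window was 7 bases in the members and 4 in all genes. Annotated starts can lie some bases away from those used in these cells. The starts below belong to members described further on, Rps27rt standing beside Rps27 because it is a near copy of it. Each sequence has 10 bases before the annotated start, and the capitals mark the C and T bases from that start to the next A or G. In all but Rps27rt, C or T bases also stand directly before the annotated start.

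Rps6 (chr4:86857348-86857377, minus strand): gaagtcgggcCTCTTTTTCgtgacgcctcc
Rplp2 (chr7:141447641-141447670, plus strand): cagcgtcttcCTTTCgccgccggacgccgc
Rpl35 (chr2:39005112-39005141, minus strand): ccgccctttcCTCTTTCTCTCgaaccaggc
Rpl38 (chr11:114668570-114668599, plus strand): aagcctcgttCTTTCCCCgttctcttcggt
Rpl28 (chr7:4792955-4792984, plus strand): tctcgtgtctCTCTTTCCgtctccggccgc
Rps27 (chr3:90213629-90213658, minus strand): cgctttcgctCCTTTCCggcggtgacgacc
Rps27rt (chr9:114982720-114982749, minus strand): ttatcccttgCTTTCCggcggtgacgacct

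The members were abundant in both states. Their values ran from 101.0 to 19079 in GM replicate 1, with a median of 5059.5, and the medians of the remaining libraries were 5003.1 (GM 2), 3434.0 (3d DM 1) and 3782.6 (3d DM 2). The medians of the GM libraries were thus close to each other and above both 3d DM medians. Per kb of representative transcript, the median member had 5695.3, against 682.7 for 1211 other abundant genes. These had a mean value of at least 1168.1, the 10th percentile of the members. Their median value was 1872.9, below the members' 4252.3, so the difference per kb holds a difference in value as well as in length. The highest values per kb were those of Rpl41 (31243), Rps24 (22825), Rpl23a (14507), Rpl19 (13802) and Rps15 (13569), all structural proteins of the subunit in their names. The lowest per kb were Rpl21 (391.5), Rpl7l1 (431.2) and Rps19bp1 (461.2). Levels per kb depend on the transcript chosen, and the one for Rps15a, at 5179 nt, is the longest of all.

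**Figure D1:**
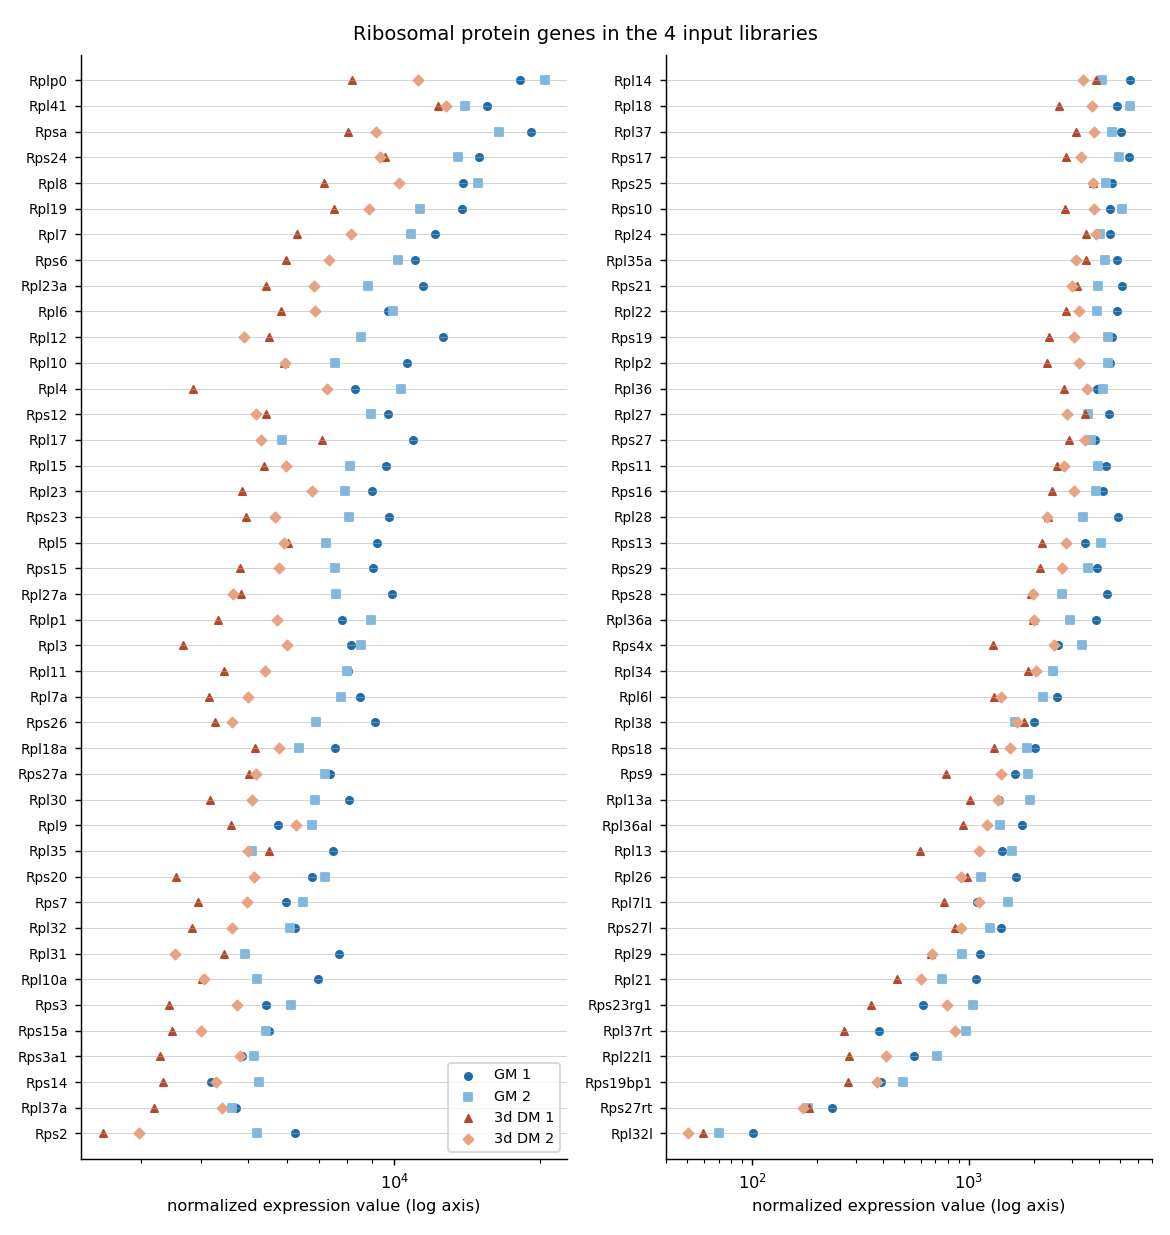
Normalized expression values of 84 tested ribosomal protein genes (log axis, 1 point per library) in 2 GM and 2 3d DM input libraries, ordered by mean value. For 75 of the 84 genes both GM points lie to the right of both 3d DM points, on the values as deposited, beside 37% of all genes tested. After median-of-ratios rescaling, which is not plotted, this held for 53 of the 86 tested members, beside 33.1% of all genes.

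As a share of each library's total, the members summed to 4.21% and 3.84% in GM, beside 2.43% and 2.83% in 3d DM. Both GM libraries lay above both 3d DM libraries. Without the largest entry the shares were 5.57% and 5.74% against 4.13% and 3.80%. The members' rescaled sums were set against a common total, the mean over the libraries of the tested genes' rescaled sums. As percentages of it, they were 3.55% and 3.80% in GM against 3.10% and 2.55% in 3d DM. The groups did not overlap on any of these scales, although with 2 libraries against 2 an exact permutation test cannot give a p below 0.33, and none was run.

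The fit across all genes called no single ribosomal protein gene different between GM and 3d DM. With limma at an adjusted p below 0.05, 9.96% of the 11406 genes were called with the higher level in GM and 7.01% with the higher level in 3d DM, but 0 of the 86 members were called in either direction. At an unadjusted p below 0.05, 13 members were higher in GM (Rpl3, Rpl4, Rpl7a, Rpl12, Rpl13, Rpl22l1, Rpl27a, Rpl28, Rplp0, Rps2, Rps12, Rps26 and Rpsa), where 16.6% of all genes were. The differences were small and lay on one side. The log2 fold change (GM minus 3d DM) was above 0 in 86 of 86 members on the values as deposited, where it was in 63.2% of all genes, and in 81 of 86 after rescaling, where it was in 49.6%. The median over the members was 0.60 as deposited and 0.37 after rescaling, beside 0.22 and -0.0055 over all genes. The standard error of a single member in limma was 0.40 to 0.54 as deposited and 0.16 to 0.60 after rescaling. As deposited, these errors followed the variance that limma fitted over genes of similar value, not the spread of a member's own libraries. The calls as deposited depend on that fitted variance.

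The differences also lay closer together in the members than in other genes. Their quartiles as deposited were 0.46 and 0.74, an interquartile range of 0.28, beside 1.04 for the other abundant genes and 0.92 for all genes tested. Both GM values were above both 3d DM values for 77 members as deposited, beside 37% of all genes, and for 53 members after rescaling, beside 33.1%. After rescaling, 0 members had both 3d DM values above both GM values, beside 3878 of the 11406 genes tested. The 9 members whose states overlapped as deposited were Rpl7l1, Rpl9, Rpl17, Rpl35, Rpl38, Rps14, Rps27rt and the copies Rpl37rt and Rps23rg1.

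**Figure D2:**
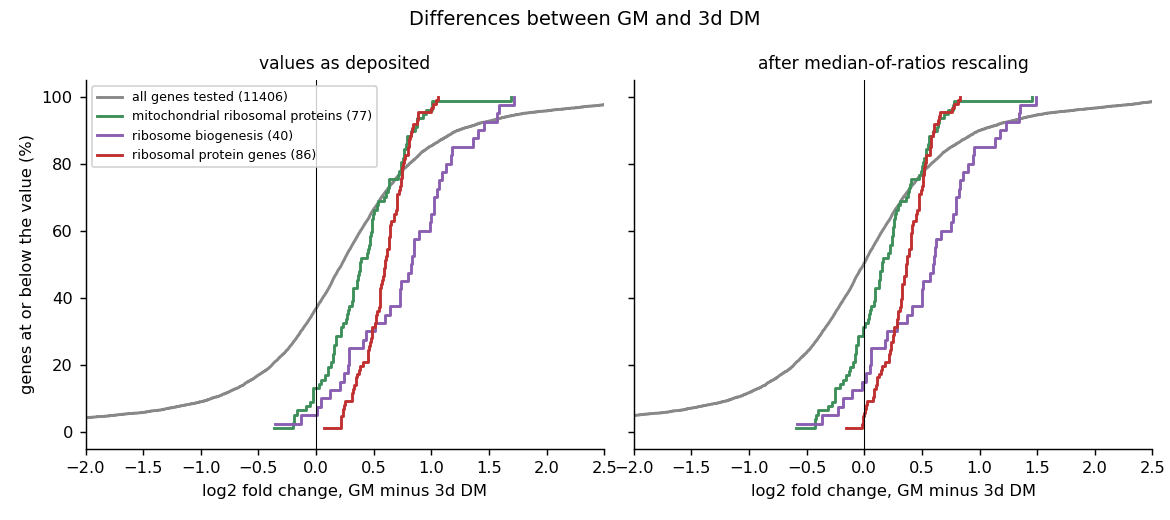
Cumulative share of genes by log2 fold change (GM minus 3d DM) for the ribosomal protein genes, the ribosome biogenesis list, the mitochondrial ribosomal proteins and all tested genes, as deposited (left) and after median-of-ratios rescaling (right). The ribosomal protein curve is the steepest, with medians of 0.60 and 0.37, and the biogenesis curve lies furthest to the right, with medians of 0.83 and 0.60.

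The medians of the subunits were close to each other. The 51 tested genes of the large subunit (Rpl and Rplp) had a median log2 fold change of 0.60 as deposited and 0.37 after rescaling. The 35 of the small subunit (Rps and Rpsa) had 0.59 and 0.36. Of the ribosomal proteins that other names hide from the symbol rule, Rack1 (a small-subunit scaffold protein) had a log2 fold change of 0.58 and Fau (a ubiquitin-like protein fused to a small-subunit protein) one of 0.30 as deposited, and neither was called.

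The largest difference was that of Rps2, a small-subunit protein near the mRNA entry of the ribosome. Its values were 6239.6 and 5218.4 in GM, against 2507.6 and 2981.4 in 3d DM. The states did not overlap, and the ratio of the means was 2.09. The log2 fold change was 1.06 ± 0.41 (moderated standard error of limma, n = 2 libraries a state), with an adjusted p of 0.0534 in limma. After rescaling its log2 fold change was 0.83 ± 0.19, and it was then the 1 member called (adjusted p of 0.027), where 11.2% of all genes were called higher in GM.

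Rpsa, the small-subunit protein also known as the laminin receptor, had 19079 and 16414 in GM, against 8027.8 and 9168.0 in 3d DM. The log2 fold change was 1.04 ± 0.40, with an adjusted p of 0.0528 in limma as deposited and 0.0562 after rescaling. Rplp0, the base of the stalk that recruits elongation factors to the large subunit, had 18173 and 20464 in GM, against 8170.4 and 11210 in 3d DM. Its log2 fold change was 1.01 ± 0.40, with an adjusted p of 0.0635 as deposited and 0.0753 after rescaling. The other two stalk proteins were nearer to the median of the members, Rplp1 at 0.74 ± 0.40 and Rplp2 at 0.70 ± 0.41.

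Rpl12, which sits at the foot of the stalk, had 12575 and 8550.1 in GM, against 5516.8 and 4907.2 in 3d DM, a log2 fold change of 0.99 ± 0.40 with an adjusted p of 0.0715 in limma. GM replicate 1 was the highest of the 4 libraries, and the states did not overlap. Rpl22l1, a paralog of Rpl22, was among the least abundant members, with 558.1 and 713.5 in GM, against 279.5 and 416.8 in 3d DM. Its log2 fold change was 0.88 ± 0.45, beside 0.52 ± 0.41 for Rpl22, which had 4814.0 and 3909.8 against 2817.5 and 3230.0.

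At the other end stood Rpl38, a small large-subunit protein. It had 2007.0 and 1631.7 in GM, against 1793.6 and 1662.2 in 3d DM, so the states overlapped, and its log2 fold change was 0.068 ± 0.42 as deposited and -0.16 ± 0.24 after rescaling. Rpl9 (0.21), Rps27rt (0.21), Rpl24 (0.22) and Rpl35 (0.23) followed as deposited, and each of these 4 was between -0.016 and -0.00078 after rescaling. They and Rpl38 are the 5 members whose direction turned with the scale. Rpl41, the smallest ribosomal protein and the most abundant member per kb, was next at 0.23 ± 0.40, with 15530 and 14007 in GM, against 12326 and 12749 in 3d DM.

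Members with roles outside the ribosome lay within the range of the rest. Rps6, the small-subunit protein phosphorylated when growth signals are active, had 11002 and 10179 in GM, against 5981.2 and 7340.2 in 3d DM (log2 fold change 0.68 ± 0.40). Rpl5 and Rpl11, which bind the p53 inhibitor Mdm2 when ribosome assembly fails, had log2 fold changes of 0.45 ± 0.40 and 0.70 ± 0.40. Rpl11 had 8018.3 and 7980.1 in GM, against 4449.4 and 5413.9 in 3d DM. For all 3 genes both GM values were above both 3d DM values as deposited, as for 37% of all genes. After rescaling this held for Rps6 and Rpl11, beside 33.1% of all genes. Rpl5 then overlapped, with 7817.9 and 7226.4 in GM, against 7769.0 and 5381.8 in 3d DM.

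Paralogs known from striated muscle (Rpl3l) or testis (Rpl10l and Rpl39l) were at or near 0. Rpl3l was listed at 0 and 2.00 in GM, beside 1.22 and 0.66 in 3d DM, while Rpl3 had 8121.3 and 8529.0 against 3671.3 and 6001.2. Rpl10l, Rpl39l and Rps4l were listed at 0 in every library. Rpl39 itself, a core large-subunit protein, was also listed near 0 (0, 1.00, 2.21 and 0), so a value of 0 in this table can be a failed estimate, and no absence is read from it.

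Among the paralogs that were measured, Rpl7 had 12100 and 10831 in GM, against 6304.1 and 8126.2 in 3d DM (0.68 ± 0.40), and Rpl7l1 had 1091.0 and 1519.3 against 767.4 and 1116.8 (0.48 ± 0.43). Rpl36a had a log2 fold change of 0.75 ± 0.41 and Rpl36al, its paralog, 0.55 ± 0.42. Rps27 had 3818.3 and 3675.9 in GM, against 2894.4 and 3418.0 in 3d DM (0.25 ± 0.41), and Rps27l, a p53 target, had 1410.9 and 1247.4 against 866.6 and 918.7 (0.57 ± 0.43). Rps27a, ubiquitin fused to a small-subunit protein, had 0.52 ± 0.40, Rps4x 0.70 ± 0.41, Rpl10 0.60 ± 0.40 and Rps19bp1 0.46 ± 0.45. None of these was called on either scale.

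Reads from near-identical copies cannot be placed with certainty, and the counting used for the table is not given in the sources used here. Besides the members, 34 pseudogene rows were in the table, 27 of them past the filter, and they summed to 0.133% to 0.211% of a library. The 6 rows Rps12-ps11 to Rps12-ps16 had nearly equal values in each library, from 1703.0 to 1751.4 in GM replicate 1 and from 1066.3 to 1116.2 in 3d DM replicate 1. The copy Rpl37rt had 385.4 and 974.4 in GM, against 264.3 and 867.2 in 3d DM, and the copy Rps23rg1 had 612.6 and 1045.7 against 354.6 and 794.9. In both copies replicate 2 was higher than replicate 1 in either state. Values of such copies and of their parents are uncertain.

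Genes that build the ribosome had a higher median difference than the ribosomal proteins, which was not tested. Of 40 genes of ribosome biogenesis, 7 were called higher in GM in limma as deposited and 0 the other way, with a median log2 fold change of 0.83. After rescaling 4 were called higher in GM and the median was 0.60. Over all genes 9.96% were called higher in GM as deposited and 11.2% after rescaling, so the count was above that share as deposited and below it after rescaling. The 7 were Nop56 (1.72 ± 0.43), Npm1 (1.58 ± 0.41), Dkc1 (1.57 ± 0.44), Ncl (1.46 ± 0.40), Fbl (1.41 ± 0.44), Gar1 (1.36 ± 0.47) and Nop58 (1.18 ± 0.42), which are nucleolar proteins, most of them components of the particles that modify ribosomal RNA. Nop56 had 1513.5 and 2898.2 in GM, against 491.1 and 820.3 in 3d DM.

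Of 13 elongation factors and other TOP mRNAs, 3 were called higher in GM on both scales, beside 9.96% of all genes as deposited and 11.2% after rescaling. These were Pabpc1, the poly(A)-binding protein (1.75 ± 0.40), Hnrnpa1, a splicing factor (1.50 ± 0.41), and Nap1l1, a histone chaperone (1.38 ± 0.41). The elongation factors themselves were not called, with 0.45 for Eef1a1 and 0.15 for Eef2 as deposited and 0.22 and -0.078 after rescaling. The list's median was 0.48 as deposited and 0.25 after rescaling. The proteins of the mitochondrial ribosome had a median of 0.38 as deposited and 0.15 after rescaling over 77 genes, and 1 of them, Mrps6, was called higher in GM, a smaller share than the 9.96% of all genes.

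Peaks of m6A were less frequent on ribosomal protein mRNAs than on other abundant mRNAs. At least 1 peak was listed for 45 of 82 members (54.9%) in either GM list, for 41 (50%) in the list of 3d DM replicate 1 and for 64 (78.0%) in that of 3d DM replicate 2. The other abundant genes had 85.2%, 80.5%, 80.9% and 86.0%. Of these, the 173 at or above the members' median value had 86.1%, 79.2%, 79.2% and 89.0%. Members were below the full set of 1211 in all 4 lists, by 23.7 percentage points on average (SD 10.8 over the 4 lists). The shortfall was smallest in 3d DM replicate 2. In that list the members' share was the highest of the 4, while the share over all 10657 genes with a protein-coding model was the lowest (56.5%, against 63.8% to 67.4%). The read numbers behind the lists are unknown, and their part in this difference was not tested.

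**Figure D3:**
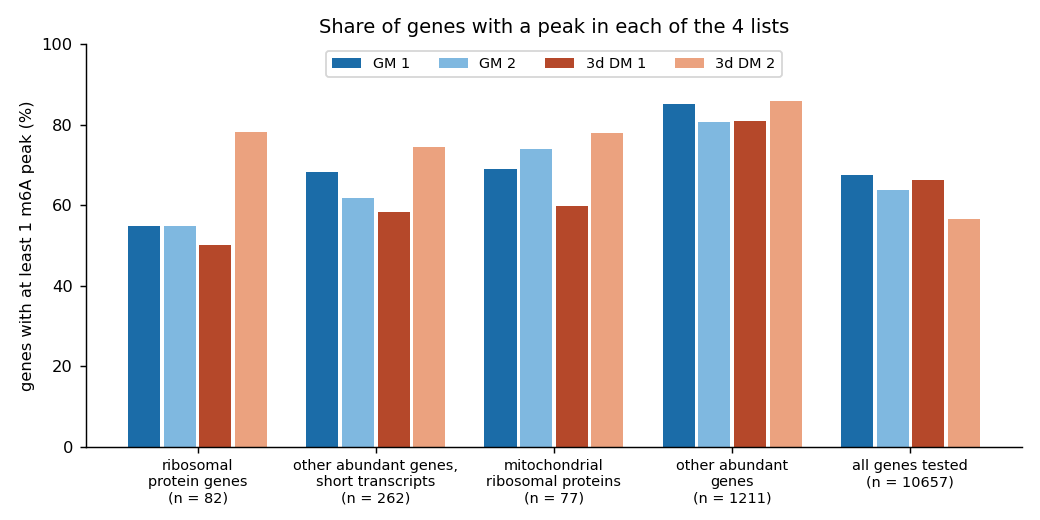
Share of genes with at least 1 m6A peak in each of the 4 lists (bars from 0, in %), for the ribosomal protein genes and 4 groups set beside them. The ribosomal protein bars are the lowest in GM 1, GM 2 and 3d DM 1 and reach 78.0% in 3d DM 2, where the bar for all genes is 56.5%.

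Length moved with this difference. The median representative transcript had 814.5 nt in the members and 3078 nt in the other abundant genes. Among the 262 other abundant genes no longer than 1824.2 nt, the 90th percentile of the members' lengths, 68.3%, 61.8%, 58.4% and 74.4% had a peak, which is 6.29 percentage points above the members on average, with the members higher in 3d DM replicate 2. This limit on length was chosen after the data were seen. It caps length without matching it, and these 262 genes had a median value of 2022.9, beside 4252.3 in the members. Mitochondrial ribosomal protein genes had 68.8%, 74.0%, 59.7% and 77.9%. Without Rpl7l1 and Rps19bp1, the members' shares were 53.8%, 53.8%, 48.8% and 77.5%.

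The peaks that members had were also weaker than those of the other abundant genes, and most of this gap was absent against short transcripts. Fold is the ratio of IP over input RNA in a peak, as the authors' caller gave it, and the strongest peak of a gene is used. The median fold was 2.57, 2.13, 2.08 and 2.84 in members with a peak (GM 1, GM 2, 3d DM 1, 3d DM 2), beside 4.06, 3.51, 3.48 and 3.77 in the other abundant genes. A fold of at least 4 was reached by 12.2%, 8.54%, 7.32% and 17.1% of the members and by 43.1%, 33.7%, 34.3% and 40.0% of the others. Among the 262 other abundant genes with short transcripts the median fold was 2.73, 2.41, 2.51 and 2.91, above the members in each list. Of these genes, 20.99%, 14.1%, 13.7% and 16.4% reached a fold of 4, with the members higher in 3d DM replicate 2. Without Rpl7l1 and Rps19bp1, 10%, 6.25%, 5% and 15% of the members reached it, which is below the short transcripts in every list. In neither the members nor the other abundant genes did GM and 3d DM separate.

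Peaks recurred in the same members. A peak was listed in all 4 lists for 38 of the 82 members (46.3%), in 3 lists for 4, in 2 for 7, in 1 for 17 and in none for 16. Of the other abundant genes, 71.5% had a peak in all 4 lists and 7.60% in none. Among the 16 members without a peak were Rpl10, Rpl34, Rpl35, Rplp0, Rplp2, Rps13, Rps14, Rps20, Rps21, Rps23, Rps27a, Rps27l, Rps27rt, Rps28 and Rps29, so 2 of the 3 stalk genes had none. Of the 17 members in a single list, 16 were in that of 3d DM replicate 2, Rps2 and Rplp1 among them, and 1, Rpl15, in that of GM replicate 1.

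Few members had peaks in the lists of 1 state only. Rpl21 was the 1 member with a peak in both GM lists (folds of 4.37 and 5.87) and in neither 3d DM list, and Rpl30 and Rps4x were the 2 with peaks in both 3d DM lists and in neither GM list, at folds of 1.39 and 2.14 for Rpl30 and 1.30 and 1.86 for Rps4x. The p-values of the Rpl21 peaks from the caller were 0.00234 and 0.0038. Of the 1211 other abundant genes, 0.66% had peaks in the GM lists only and 0.83% in the 3d DM lists only, and of all 10657 genes 2.82% and 1.84%. No test of the difference between states was run on these.

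Among core ribosomal proteins with a peak in all 4 lists, the highest mean fold was that of Rpl23, a large-subunit protein. Its strongest peaks had folds of 9.44 and 8.02 in GM, against 9.24 and 8.54 in 3d DM, and lay in the 3′ UTR at chr11:97777527-97777792 on the minus strand in 3 lists and from chr11:97777556 in 3d DM replicate 2 (mm10). The 4 values were close, and the spread within a state was as large as that between states. Rps19, a small-subunit protein mutated in Diamond-Blackfan anaemia, followed among these with folds of 4.37, 5.48, 3.63 and 5.88. Rpl36al had 5.51, 4.46, 4.08 and 4.27, Rpl17 had 3.78, 1.90, 5.82 and 5.58, Rpl4 had 4.09, 2.92, 3.08 and 6.49, and Rps18 had 4.62, 3.34, 4.01 and 4.49.

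Higher mean folds still were those of the 2 that are not part of the ribosome. Rpl7l1 had folds of 11 and 13.1 in GM, against 9.95 and 7.33 in 3d DM, and Rps19bp1 had 5.56 and 16.6 against 5.83 and 7.93. The 3′ UTR of Rpl7l1, of 1841 nt, held its strongest peak in all 4 lists. The 12 members with the highest mean fold also included Rpl11, Rpl28, Rpsa and Rpl19, with mean folds of 3.15 to 3.34. Rpl6, listed in 2 lists only, had folds of 1.25 in GM replicate 2 and 9.02 in 3d DM replicate 2.

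**Figure D4:**
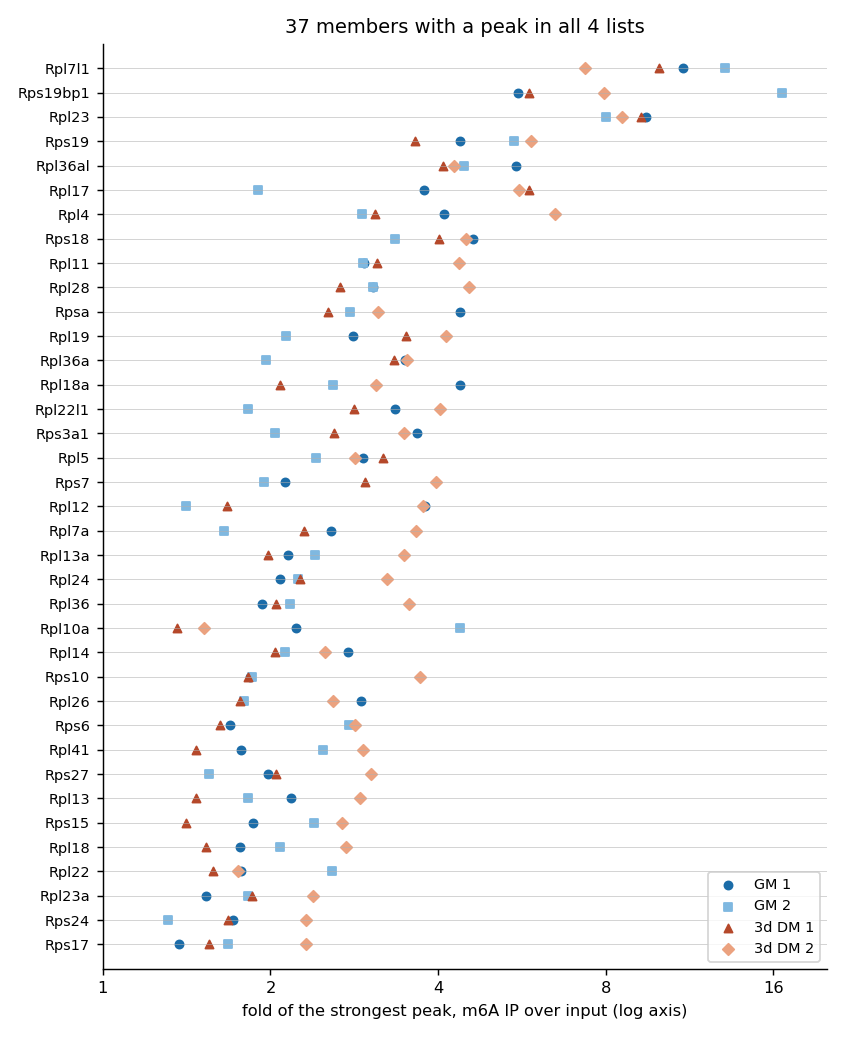
Fold of the strongest m6A peak (IP over input, log axis) for 37 ribosomal protein genes with a peak in all 4 lists, 1 point per list, ordered by mean fold. Rpl7l1, Rps19bp1 and Rpl23 stand to the right of the rest, and the point of 3d DM 2 is the highest in 22 of the 37 genes.

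Over these 38 members the median fold was 2.82 and 2.32 in GM, against 2.28 and 3.50 in 3d DM. The 3d DM replicates stood further apart than the GM and 3d DM states did. The fold was highest in 3d DM replicate 2 for 60.5% of the 38 members and for 30.8% of the 866 other abundant genes with a peak in all 4 lists. Both GM folds were above both 3d DM folds in 4 members (Rpl7l1, Rpl10a, Rpl22 and Rpl36al) and below in 7 (Rpl11, Rpl17, Rpl19, Rpl23a, Rpl24, Rps7 and Rps27), which is 10.5% and 18.4% of the 38, while in the other abundant genes they were above in 19.2% and below in 10.97%. The median log2 difference was -0.16, beside 0.044 in the other abundant genes.

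On the transcripts, the members' peaks covered the stop codon. Where a member had a peak, it reached the stop codon of the representative transcript in 84.4%, 86.7%, 85.4% and 87.5% of members in the 4 lists, beside 54.6%, 56.5%, 49.7% and 52.8% of the other abundant genes. Of the members' deposited peak lines, 72.3% to 75.7% touched both the coding sequence and the 3′ UTR, against 19.7% to 25.8% of the others' lines. The members' short transcripts move with this: a median line covered 24.4% to 33.4% of its transcript, beside 8.07% to 10.2% for the others, and the median 3′ UTR was 87.5 nt long, beside 975 nt. The part of transcript length in this difference was not tested. The 5′ UTR held at most 0.41% of the covered bases of a member on average, in a region of 11.4% to 14.1% of the transcript. In the other abundant genes it held 2.01% to 4.19%, in a region of 7.44% to 8.03%, so its share of covered bases was below its share of length there too.

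**Figure D5:**
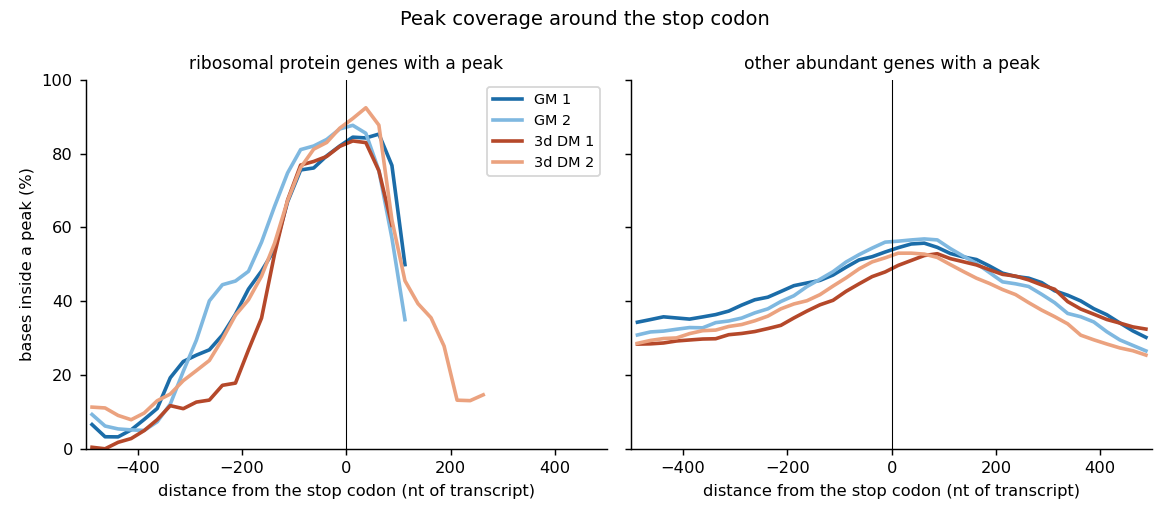
Share of transcript bases inside a peak (in %) by distance from the stop codon, in bins of 25 nt, for ribosomal protein genes (left) and other abundant genes (right) with a peak in the list; bins with few bases are left out. In the first bin after the stop codon begins, the ribosomal protein genes reach 83.4% to 89.5% and the other abundant genes 49.7% to 56.3%.

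Fewer places for the mark were found on the members' shorter transcripts, at a similar number per kb. The context in which m6A is placed (A, G or T, then A or G, then AC, then A, C or T, searched on the transcript strand) occurred 15 times in the median member and 60 times in the median other abundant transcript, which is 17.9 and 19.9 times per kb. More than 100 nt from any exon junction, the median member had 4 such sites and the median other transcript 27, and 18 of the 82 members (22.0%) had none, beside 0.33% of the others. The members had a median of 5 exons with a longest internal exon of 152.5 nt, beside 11 exons and 216 nt. The strongest form of the context, GGACT, was present in 42 members (51.2%) and in 91.7% of the others, and occurred 0.87 and 1.02 times per kb. In windows of equal length (814 nt) it was present in 50.4% of those in the members and in 54.7% of those in the others, but only 41 of the 82 members are long enough for such a window, and the longest of them supply the most windows.

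Among the members, these features separated those with and without peaks little. The median length was 831.5 nt in the 38 members with a peak in all lists and 679 nt in the 16 with none, and GGACT was present in 47.4% and 37.5% of them. The 28 members with a peak in 1 to 3 lists were above both, with a median length of 868.5 nt and GGACT in 64.3%. Over the 38, Spearman's rho of the mean log2 fold with 3′ UTR length was 0.40 and with the number of sites away from junctions 0.37. The 38 include Rpl7l1 and Rps19bp1, which had the highest mean folds (10.3 and 8.98), and rho was not computed without them. Over all 82 members, the rho of the number of lists with a peak was 0.023 with 3′ UTR length and 0.0024 with the number of GGACT sites. These are correlations across genes, which share the same libraries, and are given as a description only. In 10 members, Rpl7l1 and Rps19bp1 among them, 13 GGACT sites lay inside a peak in all 4 lists. The sequences below are 6 of these, with GGACT in capitals and 12 bases on either side, picked after their values were seen as examples from members with high folds and from members with a site near the stop codon.

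Rpl7l1 (3′ UTR, chr17:46774831-46774859, minus strand): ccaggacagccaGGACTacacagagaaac
Rps19bp1 (3′ UTR, chr15:80260919-80260947, minus strand): ccctccttggctGGACTtctgctgtcctg
Rpl36al (coding sequence, chr12:69183095-69183123, minus strand): caaaaacccgaaGGACTttctgtaagaaa
Rpl4 (coding sequence, chr9:64178290-64178318, plus strand): ttccagagaaggGGACTgcagacaagaag
Rpl22l1 (at the stop codon, chr3:28807313-28807341, plus strand): ttcagagtctgaGGACTaattggcctctg
Rpl13a (just before the stop codon, chr7:45125944-45125972, minus strand): ctcaagaccaacGGACTcctggtgtgaac

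In Rpl22l1 the central A of GGACT lies 2 nt and in Rpl13a 10 nt before the first base of the stop codon. Rpl23, with the highest folds of the core proteins, had no GGACT anywhere in its representative transcript. The same held for Rps19, Rpl17 and Rps18, also among the members with high folds. A match of these letters is no evidence that the site is methylated, since a peak spans many candidate sites and the lists give no single-base position.

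Many members carry further genes within them. Inside 29 of the 82 members the annotation places 57 snoRNA genes on the same strand, with 5 in Rpl4 and 4 in Rpl13a. The members lie on 19 chromosomes.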

How the data were processed

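The authors trimmed adaptors, aligned reads to mm10 with HISAT2 (2.1.0) and called peaks with exomePeak in each IP against its input. The 4 deposited peak lists give a p-value and a fold, the ratio of IP over input, for each peak. The deposited expression table holds a normalized signal, TMM in its name, for which the authors used edgeR. Reads could not be recovered from it, so no count test was used. Entrez identifiers were matched to RefSeq symbols for 98.7% of tested genes. Libraries were grouped by their labels, and none was left out. A few genes are not reported here by name.

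A gene was tested if its value reached 2 cpm of its column (25.1) in 2 or more libraries. The test was limma (3.58.1, under R 4.3.3), with a trend on intensity, on values to which 1 was added before taking log2. It was fitted on all genes, with Benjamini-Hochberg adjustment at 0.05. Fold changes on this scale understate those of low genes. The fit was tested on simulated data.

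A gene had a peak if a list held a line of its symbol. The representative transcript was the GENCODE M21 transcript matched to RefSeq Select, otherwise the APPRIS principal one. Named genes were the 5 members with the largest and the 5 with the smallest log2 fold change, any called member, the paralog pairs, the stalk genes, Rpsa, Rps6, Rpl5, Rpl11, the 5 highest per kb, the 12 highest mean folds, and members with peaks in 1 state only. Others named are values at the edge of a count or range, chosen after their values were seen. Members and lists were chosen with earlier results of these data known. Alternatives were other filters, pseudocounts, rescalings, a replicate block, each library left out, stricter peaks and other comparison genes.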

Additional observations from a re-analysis of the deposited data

How the results depend on the processing

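Without the trend, with other filters or pseudocounts and with the replicate block, 0 members were called. In these settings the share of all genes called higher in GM ran from 6.18% (replicate block) to 10.1% (without the trend). Rescaling changed this: 1 member, Rps2, was called higher in GM after median-of-ratios or trimmed-mean rescaling, and 10 (11.6%) were after rescaling to the total without the largest entry, where 14.1% of all genes were called higher in GM. The median log2 fold change of the members stayed above 0 throughout. It was 0.37 after median-of-ratios and 0.36 after trimmed-mean rescaling, 0.49 without the largest entry, and 0.49 to 0.74 when 1 library was left out. Above the median of all genes it was 0.37 in the values as deposited, 0.45 with no filter, and 0.27 to 0.52 with 1 library left out (0.27 without 3d DM replicate 2). The difference in the summed share, 1.40 percentage points, was 1.69 without the largest entry. For the rescaled sums, as percentages of a common total of the tested genes, it was 0.85. The shortfall of members with a peak was smaller (-6.29 percentage points) against other genes with short transcripts. Rpl38 (-0.16), Rpl9 (-0.016), Rps27rt (-0.015), Rpl24 (-0.015) and Rpl35 (-0.00078) turned below 0 after median-of-ratios rescaling, and after trimmed-mean rescaling they were -0.16, -0.017, -0.016, -0.016 and -0.0017. Rpl38 was -0.037 without the largest entry. With 1 library left out, Rpl38 ranged from -0.082 to 0.22, Rpl9 from -0.0090 to 0.44 and Rpl35 from -0.047 to 0.51.

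The labels number the replicates 1 and 2 in each state but do not tie the numbers to a shared day. The difference between replicates correlated at 0.29 between the states over tested genes. With the replicate block, 0 members were called and 3 had an unadjusted p below 0.05 in limma, with a median log2 fold change of 0.60. Over all genes, the share called higher in GM fell from 9.96% to 6.18% with the block. Depth is unknown, so no limit of detection is given for genes listed at 0 or for members without a peak.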
